A study of Homo sapiens with 8 samples.

Results

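The comparison described here sets cells that flew in orbit under artificial gravity against cells that stayed on Earth. Its members are 5 of the 8 RNA-seq libraries of the series, chosen by their labels: replicates 1 and 2 of space_1g and replicates 1 to 3 of ground. The question it addresses is what flight changes when weight is restored in orbit. The space_1g cells met launch and radiation, were spun while in the incubator, and were fixed before the return. All genes with a level of at least 1 CPM, the unit of read counts scaled to library size, in at least 2 libraries were compared, which are 16103 of the 16153 genes in the table.

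Every library came from HMEC-1, a line of human dermal microvascular endothelial cells immortalised with a viral large T antigen, so that the groups share one genotype and that transgene. Cells of all groups grew on gelatin-coated plastic coverslips in medium with fetal bovine serum, hydrocortisone and epidermal growth factor, inside automated culture units, and samples for RNA were fixed with RNA Protect Cell Reagent. One protocol text is entered for all libraries and gives 37 °C for culture before the units were loaded. It gives storage at 6 °C after describing the return from orbit, and does not describe storage of ground samples separately. The space_1g units were spun to 1 g in the centrifuge of an incubator in the Columbus module of the International Space Station, fixed in orbit and returned. The ground units were prepared at the same time, travelled back to the home laboratory by airliner and were placed in a different facility there, with activation and medium changes timed to match. The remaining 3 libraries, space_microg, came from the same orbital incubator without spinning and are used here only to place the comparison. The labels do not say whether replicates were separate cultures, so every p-value measures only the spread between these libraries, which may be technical. Ground cells differed from space_1g cells in facility, journey, launch, orbit, radiation and spinning together, and these cannot be told apart.

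Endothelial cells line blood vessels, and like other cells they both take up cholesterol and make it. The transcription factor SREBP-2, the product of SREBF2, switches on the enzymes of the synthesis pathway when sterols in the membrane of the endoplasmic reticulum run low, and is held back when they are plentiful. Adenylyl cyclases make cyclic AMP, a second messenger that tightens the junctions between endothelial cells, and phosphodiesterases break it down.

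Library depth was 30929975 and 25893168 reads in space_1g and 24248964 to 34625881 in ground, so that a count of 0 would allow 3 reads, or 0.0855 to 0.12 CPM over the 8 libraries, for counting error only. The endothelial markers fixed for the check of identity were all measured. CDH5, the cadherin of endothelial junctions, lay at 268 to 579 CPM over the 8 libraries, and VWF, von Willebrand factor, at 27.2 to 56.8 CPM. Of the marker lists for other cells, 5 keratinocyte genes passed the filter, with a summed level of 69.2 CPM in space_1g replicate 1, 46.5 CPM in ground replicate 3 and 2.79 to 14.2 CPM in the other 6 libraries. Most of that sum was FLG, filaggrin of the skin barrier, at 55.7 and 32.5 CPM in those libraries. KRT5, KRT14, TP63 and CDH1 were not analysed here. The 8 smooth muscle and pericyte genes that passed summed to 1154 CPM in space_1g replicate 1 and 1489 CPM in ground replicate 3. Their sum was 458 to 695 CPM in the other 6 libraries. The 5 fibroblast genes that passed summed to 106 to 304 CPM over the 8 libraries. The leukocyte list was represented by CD14 alone, at 1.04 to 2.88 CPM.

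Space_1g replicate 1 and ground replicate 3 stood apart from the other libraries, and this bears on every result that follows. The spread over genes of the log2 difference between libraries had an SD of 0.72 between the 2 space_1g replicates, against 0.40 between space_1g replicate 1 and ground replicate 3 and 0.35 between space_1g replicate 2 and ground replicate 1. Within ground, replicates 1 and 2 were 0.30 apart, while replicate 3 was 0.73 and 0.84 from them. Between the 2 space_1g replicates 1982 genes differed by more than 1 on the log2 scale, compared with 450 between space_1g replicate 1 and ground replicate 3. Each space_1g library was therefore nearer to a ground library than to its own replicate. Space_1g replicate 2 was nearer still to the space_microg libraries, at 0.33, 0.34 and 0.32 from replicates 1 to 3.

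**Figure D1:**
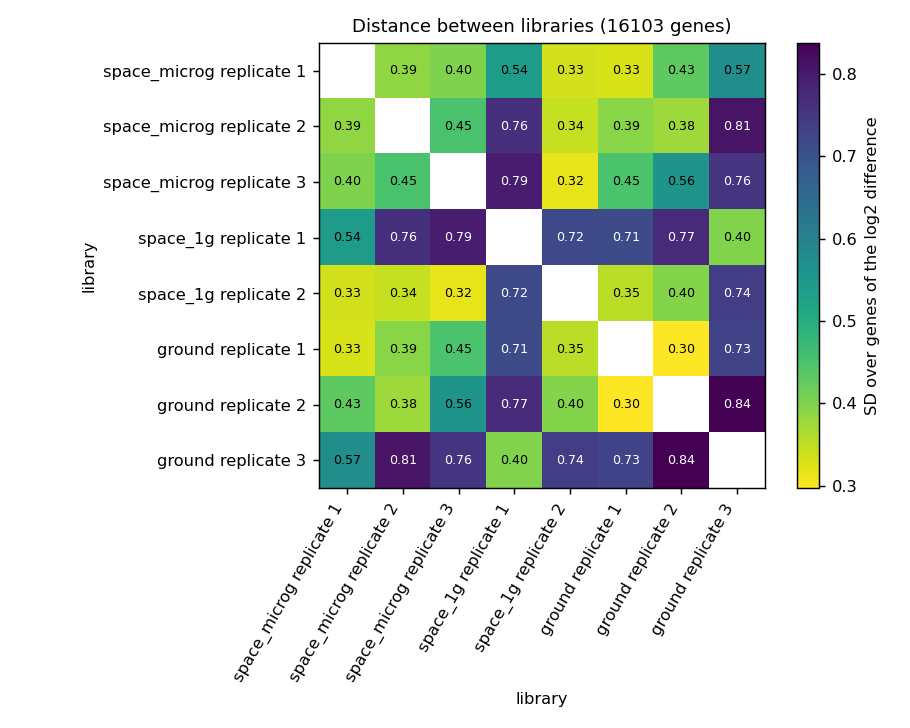
Distance between each pair of the 8 libraries, as the SD over 16103 genes of the difference in log2(CPM + 1). In the rows of space_1g replicate 1 and ground replicate 3 the lightest cell is where the pair meet, at 0.40. Space_1g replicate 2 is 0.35 from ground replicate 1 and 0.32 to 0.34 from the space_microg libraries.

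The genes that separated the 2 space_1g libraries most were mainly interferon-induced and histone genes. MX1, an interferon-induced antiviral GTPase, had 486 and 9.93 CPM in space_1g replicates 1 and 2, and 60.1, 7.93 and 660 CPM in ground replicates 1 to 3. ISG15, an interferon-induced ubiquitin-like protein, had 621 and 27.9 CPM against 51.3, 12.3 and 577 CPM. Both genes were high in the same libraries that stand apart, 1 in each group. In the other direction the histone gene HIST1H2BM had 7.51 and 81.4 CPM in space_1g against 90.1, 82.3 and 34.6 CPM on the ground, and LEPR, the leptin receptor, 16.5 and 143 CPM against 173, 212 and 31.2 CPM. The deviation of each gene from its mean over all 8 libraries also followed the GC content of its transcript. Spearman's rho across genes was 0.42 in space_1g replicate 1 and 0.48 in ground replicate 3, and -0.225 to -0.114 in the other 3 libraries compared here. A larger rho, of -0.73, was found in space_microg replicate 2, which enters that mean and the fit, so skew with GC content was not confined to the libraries that stand apart. In space_microg replicates 1 and 3 it was -0.01 and -0.12. The difference between the groups had a rho of 0.10 with GC content over the 13870 genes that have a transcript sequence. The part of GC content and of the keratinocyte genes in the results was not tested.

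**Figure D2:**
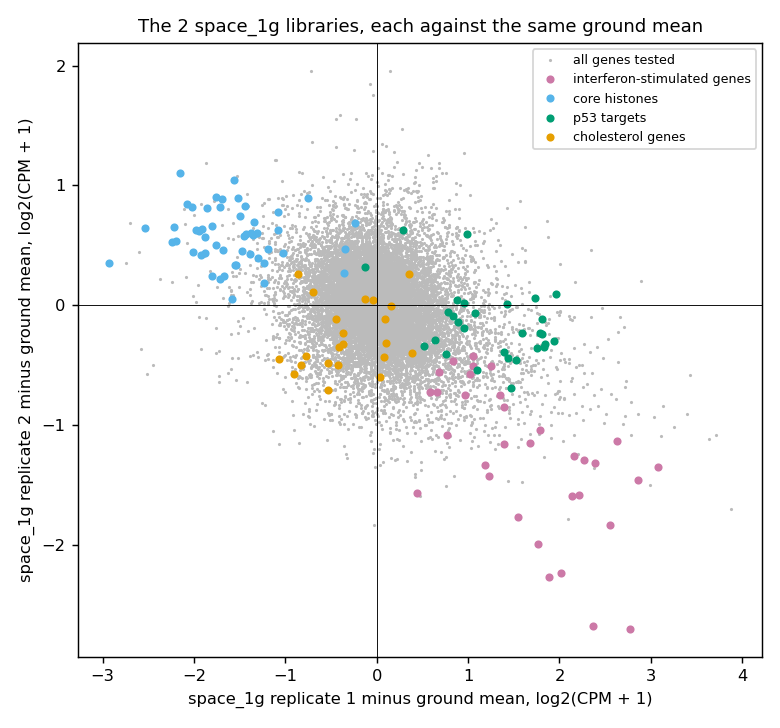
Each gene's log2(CPM + 1) in space_1g replicate 1 (horizontal) and replicate 2 (vertical), each minus the same ground mean, with 4 gene lists in colour. Interferon-stimulated genes and core histones lie mostly in quadrants where the 2 flight libraries took opposite sides of the ground mean, while cholesterol genes lie mostly in the quadrant where both were lower. Both axes share the ground libraries, so the plot is no test.

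No gene passed the test between space_1g and ground. limma called 0 of 16103 genes (0%) at an adjusted p under 0.05, with an adjusted p of 1.00 for every gene. At an unadjusted p under 0.05 there were 116 genes higher in space_1g (0.72%) and 133 lower (0.826%). edgeR and DESeq2, run on recovered read counts, also called 0 genes, with 227 and 327 at an unadjusted p under 0.05. Leaving out ground replicate 1 turned the unadjusted count of 249 into 84. Leaving out space_1g replicate 2 gave 871 and leaving out ground replicate 3 gave 1327, with 0 genes called in each case. Both space_1g libraries lay above all 3 ground libraries in 795 genes (4.94%) and below them in 922 genes (5.73%). Those percentages are the background against which the counts of gene groups below are read.

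Differences between the group means were small beside the distance between the 2 flight libraries. The middle 90% of log2 differences ran from -0.42 to 0.46, with a median over all genes of 0.01 and a median SE of 0.27. In 12362 genes (76.8%) the 2 space_1g replicates differed from each other by more than their mean differed from ground. A difference above 1 on the log2 scale was found in 62 genes, of which 6 had groups that did not overlap. All differences of genes below are log2(CPM + 1) of space_1g minus ground ± SE from limma, each with an adjusted p of 1.00, and the scale understates differences of low genes.

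The genes named next led the comparison by unadjusted p among those whose groups did not overlap, so that their lack of overlap comes from how they were chosen. PTP4A1, a membrane-anchored phosphatase that favours cell growth and movement, had the smallest unadjusted p of the genes so chosen. Its levels were 162 and 138 CPM in space_1g and 79.3, 87.7 and 96.5 CPM on the ground, and the difference was 0.74 between space_1g replicate 1 and ground replicate 3 and 0.72 between replicate 2 and the mean of ground replicates 1 and 2. Inside and outside the libraries that stand apart, the gene was thus higher in flight by almost the same amount. It was chosen for its small p in these same libraries, which favours such closeness, so this is a description only. In bulk RNA, for this gene and those that follow, a different number of cells of a kind and a different amount of RNA per cell cannot be told apart. The RNA-binding protein gene RBM3, a marker of cooling, had 156 and 253 CPM in space_1g against 122, 132 and 73.5 CPM on the ground, a difference of 0.90 ± 0.30, which was 0.56 without space_1g replicate 2 and 1.25 without space_1g replicate 1. In space_microg it had 311, 333 and 418 CPM, so the spun cells lay between the ground and the weightless cells, and space_1g minus space_microg was -0.82. SRSF5, another cold-inducible RNA-binding gene, had 155 and 165 CPM against 201, 229 and 183 CPM, on the opposite side of ground to RBM3, and CIRBP, the best known relative of RBM3, overlapped at 80.5 and 71.6 CPM against 61.0, 80.9 and 68.8 CPM.

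POLR2A, the catalytic subunit of RNA polymerase II (chromosome 17, 7484366 to 7514616, GRCh38), had 482 and 505 CPM in space_1g and 297, 383 and 256 CPM on the ground, a difference of 0.68 ± 0.20. In space_microg it had 332, 274 and 294 CPM, inside the range of ground. KDM6B, a demethylase that removes a repressive mark from histone H3, was also highest in space_1g, at 23.3 and 16.2 CPM. It had 9.83, 10.9 and 9.96 CPM on the ground. Its 11.3, 8.32 and 8.42 CPM in space_microg lay on both sides of the ground range. These genes were high in the spun libraries and near ground level in the weightless ones. The difference between space_1g and space_microg was 0.72 for POLR2A and 1.00 for KDM6B, with a limma adjusted p of 0.912 for both.

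The other genes that led the higher side covered several functions. TRPS1, a GATA-type transcriptional repressor, was almost equal within each group, at 7.44 and 7.36 CPM in space_1g against 4.30, 3.94 and 4.26 CPM on the ground, a difference of 0.70 ± 0.21. RASSF8, a Ras-association protein of cell junctions, had 81.5 and 80.8 CPM against 58.7, 57.2 and 60.6 CPM (0.46 ± 0.14). In both genes the replicates of each group lay close together. ALDH7A1, an aldehyde dehydrogenase of lysine breakdown, had 70.1 and 74.7 CPM against 48.0, 56.3 and 50.8 CPM, and MBD5, a methyl-CpG-binding domain protein, 44.2 and 45.2 CPM against 29.9, 35.0 and 30.6 CPM. CLCA2, a membrane protein that is a p53 target, differed most, by 1.22 ± 0.39, with 15.7 and 9.29 CPM against 3.10, 3.59 and 8.46 CPM. Its groups nearly met, at space_1g replicate 2 and ground replicate 3. SORL1, a sorting receptor, had 29.1 and 27.1 CPM against 13.6, 15.8 and 15.9 CPM. PIGL, an enzyme of GPI anchors, had 14.01 and 15.71 CPM against 7.68, 8.77 and 5.55 CPM, and ZMAT3, a p53 target that binds RNA, 147 and 112 CPM against 57.5, 78.9 and 88.4 CPM. SORL1, PIGL and ZMAT3 had differences of 0.84, 0.86 and 0.72 without both libraries that stand apart, but the remaining libraries also entered their choice.

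The genes that led the lower side are given in the same way. ACSL5, which attaches coenzyme A to long fatty acids, had 70.5 and 69.2 CPM in space_1g and 118, 106 and 84.0 CPM on the ground, a difference of -0.53 ± 0.17. ERP29, a chaperone-like protein of the endoplasmic reticulum, had 72.6 and 87.1 CPM against 129, 104 and 136 CPM (-0.61 ± 0.18). In both, the space_1g libraries were also below every space_microg library, which had 80.5 to 83.2 CPM for ACSL5 and 96.7 to 118 CPM for ERP29. TPM2, a tropomyosin of actin filaments, had 20.1 and 28.1 CPM against 39.3, 40.3 and 34.9 CPM. Its difference was -0.66, and -0.43 without space_1g replicate 1. LLGL2, a cell polarity protein, had 7.83 and 8.61 CPM against 16.4, 13.2 and 18.1 CPM. TSPAN18, a tetraspanin found in endothelium, had 29.4 and 25.2 CPM against 50.5, 54.4 and 38.3 CPM, and ACYP2, an acylphosphatase, 3.51 and 3.59 CPM against 6.26, 6.81 and 6.13 CPM. The pseudogene MTMR9LP differed by -0.72, and its reads may be shared with its parent gene. FBLN5, fibulin 5 of elastic fibres, had 41.6 and 39.2 CPM against 75.5, 59.5 and 61.6 CPM. SQLE, ADCY4 and SCD are described with their pathways.

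Of the 24 genes chosen in this way, 12 in each direction, 19 had all 3 space_microg libraries on the same side of ground as space_1g, 9 of them higher and 10 lower. The comparisons share their ground libraries, so this count is a description only. The exceptions were KDM6B, POLR2A, CLCA2, ERP29 and TSPAN18. In 9 of the 24 the space_1g libraries were also farther from ground than every space_microg library, among them PTP4A1, SORL1, TRPS1, MBD5 and ACYP2. Over the 1717 genes whose space_1g and ground libraries did not overlap, 612 had space_microg wholly on the same side. In 413 of the 1717 the space_1g libraries were also farther from ground than every space_microg library.

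**Figure D3:**
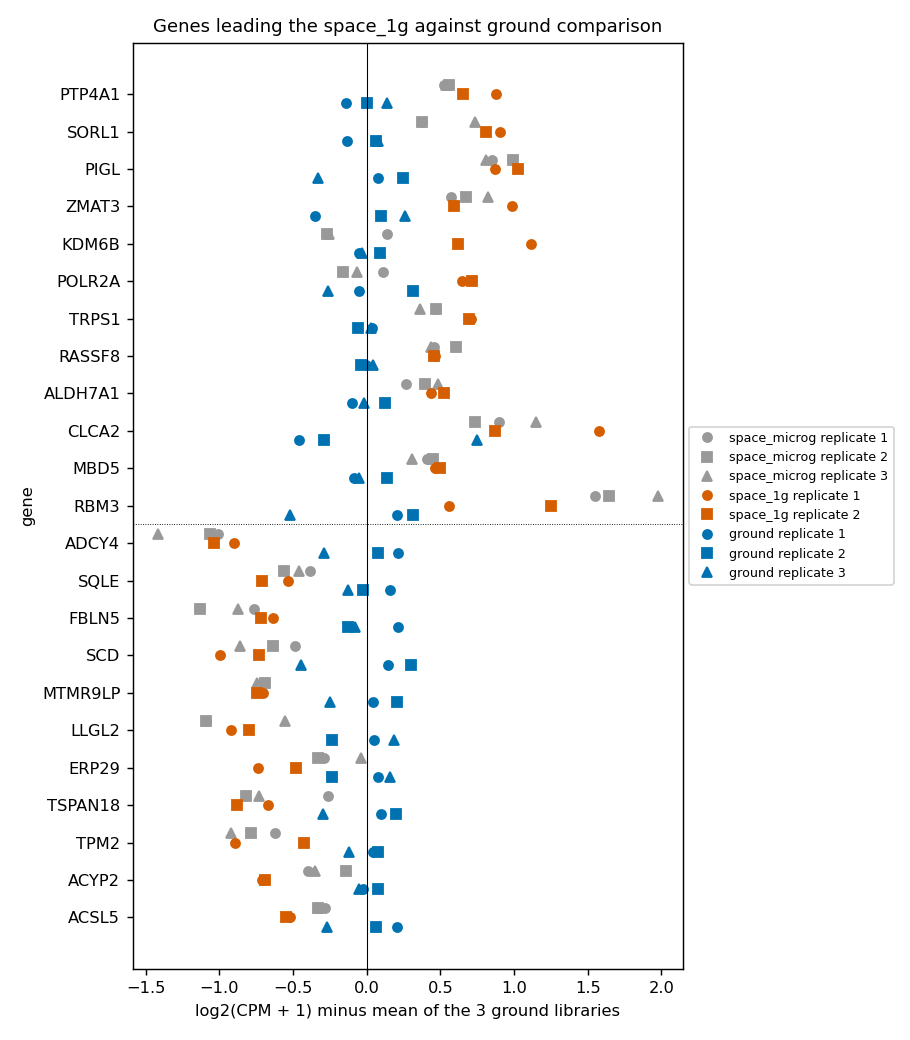
Level of 12 leading genes above ground and 11 below it in every library, as log2(CPM + 1) minus the mean of the 3 ground libraries (blue), with space_1g in orange and space_microg in grey. Orange symbols lie to one side of blue symbols by the choice of genes, and all 3 grey symbols also lie beyond the blue ones on that side except for KDM6B, POLR2A, CLCA2, ERP29 and TSPAN18.

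Chosen by the width of the gap between groups instead of by p, a few further genes appeared. NUP210, a nuclear pore protein, had 4.91 and 6.65 CPM in space_1g and 10.1, 10.5 and 10.0 CPM on the ground (-0.74 ± 0.24). LINC00324, a long non-coding RNA, had 7.35 and 6.57 CPM against 3.86, 4.14 and 3.49 CPM, and TMEM134, a membrane protein, 7.05 and 7.82 CPM against 3.60, 4.54 and 4.54 CPM. The gap exceeded 0.5 on the log2 scale in 21 genes above ground and 11 below it.

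Genes of cholesterol synthesis and its control had the highest share of members below ground among the lists examined. Of 26 members, 23 had a lower mean in space_1g and 3 a higher one, with a median of -0.32 against 0.01 for all genes. Both space_1g libraries were below all ground libraries in 10 members (38.5%, background 5.73%) and above them in 0 (background 4.94%). At an unadjusted p under 0.05, 8 members were lower (background 0.826%) and 0 were higher, and limma called 0 after adjustment. The list was chosen with earlier results of these data known, so its count is no independent evidence. The median stayed between -0.51 and -0.29 over the alternatives tried and was -0.39 without both libraries that stand apart. Between the libraries that stand apart, space_1g replicate 1 and ground replicate 3, 20 of 26 members were lower in flight. Between space_1g replicate 2 and the mean of ground replicates 1 and 2, 24 were lower. Of all 16103 genes, 8442 were lower in the first of these comparisons and 7875 in the second.

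Along the pathway, early and late steps were represented. MVD, which makes the isoprene unit, had 34.2 and 35.3 CPM in space_1g and 51.3, 42.2 and 56.9 CPM on the ground (-0.51 ± 0.25). FDPS, which joins such units into farnesyl diphosphate, had 130 and 143 CPM against 170, 166 and 169 CPM (-0.30 ± 0.14), and FDFT1, the committed step to sterols, 84.8 and 88.8 CPM against 122, 112 and 107 CPM (-0.39 ± 0.14). MSMO1, a methyl sterol oxidase, had 39.1 and 49.3 CPM against 90.0, 73.2 and 52.5 CPM, with ground replicate 3 close to space_1g replicate 2. DHCR7, which completes cholesterol in the last step, had 20.3 and 31.7 CPM against 46.3, 43.9 and 40.8 CPM (-0.76 ± 0.27). Its difference was -0.45 when space_1g replicate 1 was left out and -1.07 when replicate 2 was. SQLE, squalene epoxidase, had 52.1 and 45.9 CPM against 84.6, 74.6 and 69.2 CPM, and CYP51A1, which demethylates lanosterol, 106 and 101 CPM against 157, 145 and 128 CPM.

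The regulators included the factor itself. SREBF2 had 129 and 133 CPM in space_1g and 168, 181 and 153 CPM on the ground (-0.35 ± 0.14). INSIG1, which retains SREBP-2 in the endoplasmic reticulum, had 28.8 and 36.4 CPM against 71.9, 72.4 and 31.4 CPM. There ground replicate 3 was as low as the flight libraries, so the groups overlapped. TM7SF2, a sterol reductase, was the member farthest above ground, by 0.31 ± 0.36, with overlapping groups. INSIG1, TM7SF2, MVD, FDPS, FDFT1, DHCR7 and SREBF2 were chosen after their values were seen.

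**Figure D4:**
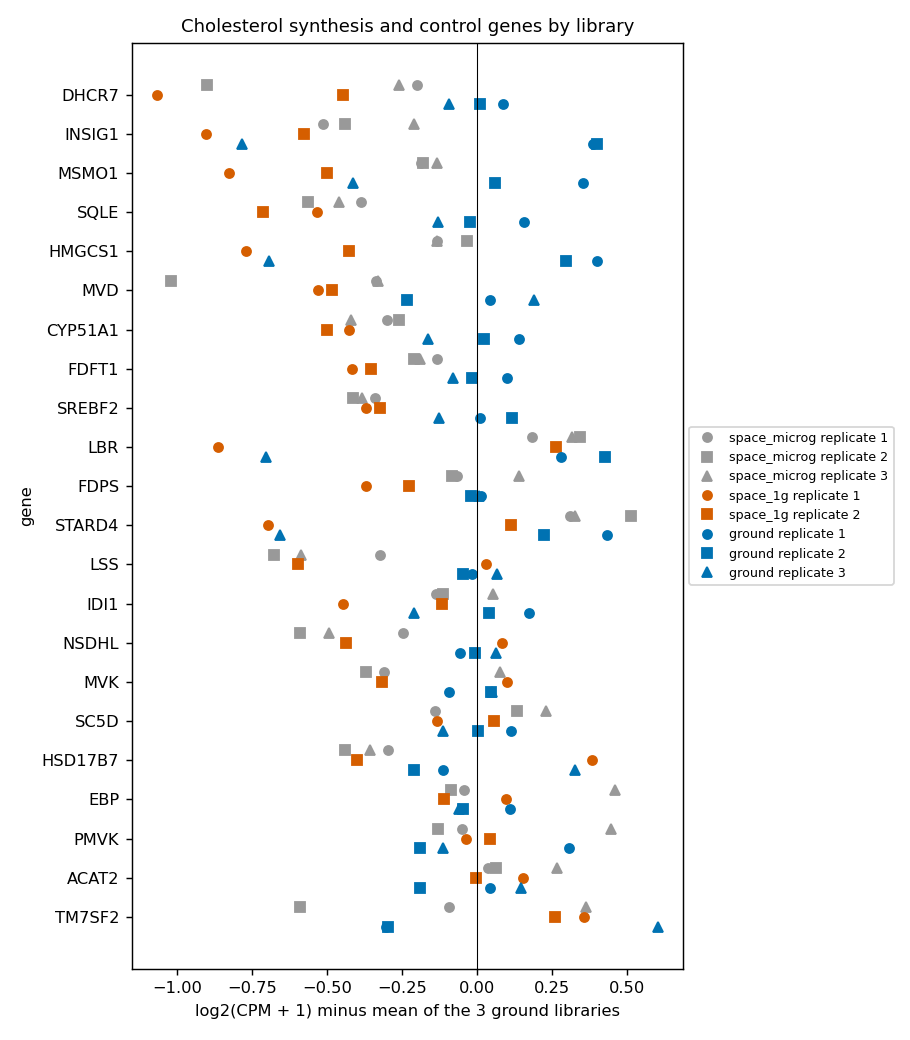
Levels of 22 cholesterol genes in every library, as log2(CPM + 1) minus the mean of the 3 ground libraries, ordered by the difference of space_1g from ground. Orange symbols (space_1g) lie left of all blue symbols (ground) for 8 genes, and for INSIG1 and HMGCS1 ground replicate 3 lies among the orange symbols.

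Promoter sequence is shown for 3 of these genes because they lay below ground together, and for a heat shock gene described later. RefSeq promoter sequences (GRCh38.p14, 250 bases before to 50 after the start of the gene) were matched for 10187 of the tested genes, 19 of them on the cholesterol list. The motif CCAAT, searched on both strands, was in 15 of the 19 promoters (78.9%) and in 36.6% of all 10187. The sterol element TCACNCCAC, which has no overlap with CCAAT, was in 1 of 19, that of SREBF2 at position -133, and in 1.08% of all promoters. The 250 bases before the start are printed 5′ to 3′ on the strand of the gene, with matches to either motif in capitals. They span chr4:165327419-165327668 on the plus strand for MSMO1, chr11:71448394-71448643 on the minus strand for DHCR7 and chr22:41832855-41833104 on the plus strand for SREBF2.
MSMO1: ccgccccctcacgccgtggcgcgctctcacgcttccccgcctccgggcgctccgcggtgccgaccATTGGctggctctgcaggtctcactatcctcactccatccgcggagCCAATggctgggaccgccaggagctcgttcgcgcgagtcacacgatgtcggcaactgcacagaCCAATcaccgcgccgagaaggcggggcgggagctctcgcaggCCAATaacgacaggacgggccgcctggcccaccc
DHCR7: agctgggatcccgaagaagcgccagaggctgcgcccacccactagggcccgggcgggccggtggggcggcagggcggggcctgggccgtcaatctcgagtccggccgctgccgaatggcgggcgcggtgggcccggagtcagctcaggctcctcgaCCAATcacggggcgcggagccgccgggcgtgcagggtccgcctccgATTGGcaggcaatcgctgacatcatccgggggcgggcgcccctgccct
SREBF2: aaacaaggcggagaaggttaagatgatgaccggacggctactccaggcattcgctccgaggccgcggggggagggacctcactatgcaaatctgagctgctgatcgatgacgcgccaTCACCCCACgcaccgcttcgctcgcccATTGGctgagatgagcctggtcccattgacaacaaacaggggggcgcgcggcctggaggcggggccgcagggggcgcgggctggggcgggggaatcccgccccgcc
MSMO1 held 4 matches to CCAAT on either strand, at -185, -139, -76 and -34, and DHCR7 held 2, at -94 and -48. A match of letters is a description and shows neither binding nor a cause.

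Genes of fatty acid synthesis and desaturation leaned the same way with a smaller median. Of 14 members 11 had a lower mean in space_1g, the median was -0.18, and both space_1g libraries were below all ground libraries in 4 (28.6%, background 5.73%). SCD, the desaturase that makes oleic acid, had 81.3 and 98.3 CPM in space_1g and 181, 202 and 120 CPM on the ground. ACACA, acetyl-CoA carboxylase, had 151 and 165 CPM against 214, 205 and 165 CPM, and FADS1, the delta-5 desaturase, 203 and 178 CPM against 231, 222 and 207 CPM. The edges of the groups nearly touched in ACACA and FADS1, and the FADS1 difference of -0.21 was -0.11 with space_1g replicate 2 left out. ACSS2, which makes acetyl-CoA from acetate, had 49.5 and 57.4 CPM against 63.0, 63.0 and 63.1 CPM, and its difference of -0.24 was -0.13 with space_1g replicate 1 left out.

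**Figure D5:**
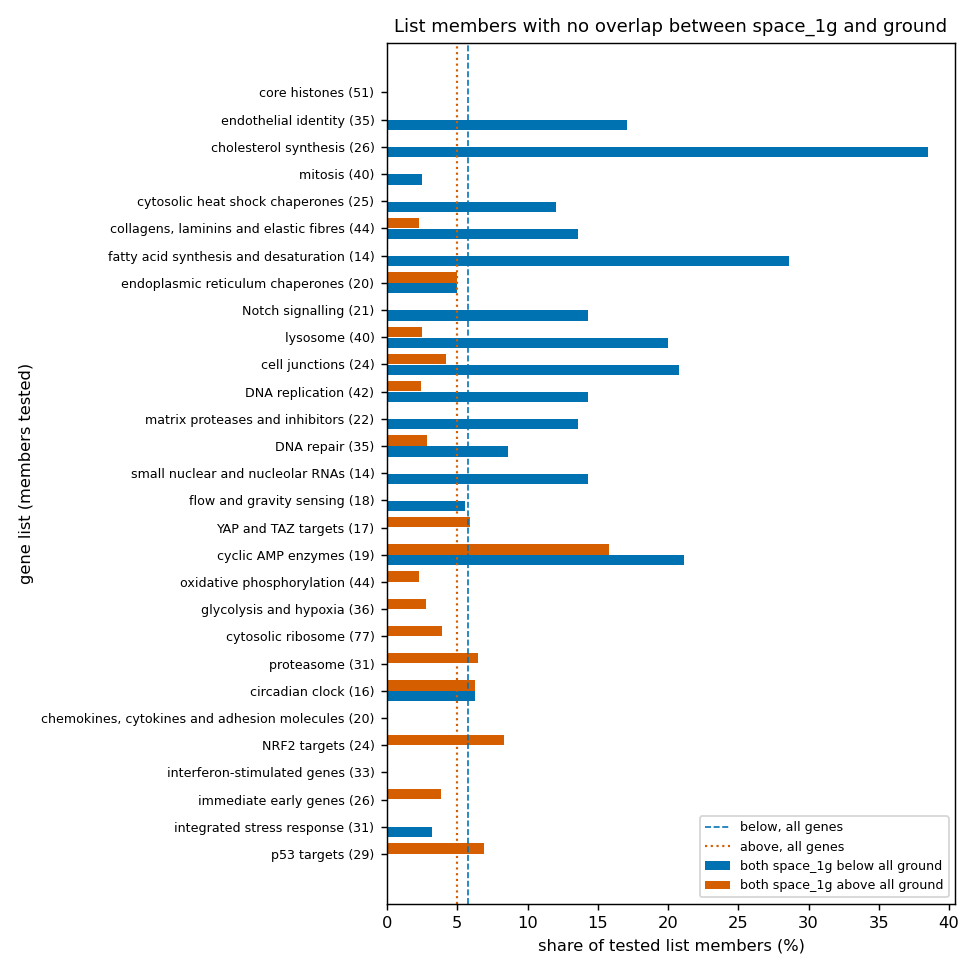
Share of members of each gene list for which both space_1g libraries lay below (blue bars) or above (orange bars) all 3 ground libraries, with the number of members tested in brackets and the share among all genes as vertical lines at 5.73% (dashed) and 4.94% (dotted). Lists are ordered by median difference; cholesterol synthesis reaches 38.5% below, while core histones and interferon-stimulated genes have no bar.

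Among the enzymes of cyclic AMP signalling, the members with both space_1g libraries below all ground libraries were cyclases. Those wholly above ground were the phosphodiesterases PDE3A and PDE4D and a kinase subunit, while the other phosphodiesterases named below overlapped with ground. ADCY4 had 16.6 and 15.0 CPM in space_1g and 37.2, 33.8 and 26.0 CPM on the ground (-0.97 ± 0.23). ADCY7 had 65.1 and 48.6 CPM against 77.1, 85.3 and 87.5 CPM (-0.56 ± 0.20, and -0.35 without space_1g replicate 2), and ADCY9 had 62.8 and 59.9 CPM against 81.6, 76.9 and 88.5 CPM (-0.42 ± 0.15). ADCY3 differed less, by -0.21 ± 0.14, and ADCY6 overlapped, at 158 and 120 CPM against 115, 122 and 151 CPM. The phosphodiesterases PDE3A and PDE4D, which degrade cyclic AMP, lay above ground, PDE3A with 5.75 and 4.38 CPM against 2.44, 3.27 and 3.59 CPM and PDE4D with 79.1 and 81.5 CPM against 73.7, 73.6 and 64.5 CPM. PRKAR2A, a regulatory subunit of protein kinase A, had 117 and 128 CPM against 113, 102 and 113 CPM. The small differences of PDE4D (0.19) and PRKAR2A (0.16) were 0.12 without ground replicate 3 and 0.09 without space_1g replicate 2, respectively. Of the 19 list members, both space_1g libraries were below ground in 4 (21.1%, background 5.73%) and above it in 3 (15.8%, background 4.94%). The median was 0.04 and changed sign in 5 alternatives. Values in brackets next compare space_1g replicate 1 with ground replicate 3, and replicate 2 with the mean of ground replicates 1 and 2. PDE4B (-0.03 and -0.43) and PDE8A (-0.05 and -0.02) were lower in both. PDE4A (0.55 and 0.1) and PDE4C (0.14 and 0.46) were higher in both. PDE2A (0.15 and -0.74) and PDE7A (0.37 and -0.04) were mixed. ADCY6, PRKAR2A and all phosphodiesterases named were chosen after their values were seen.

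Of 35 endothelial identity genes, 30 had a lower mean in space_1g, and the median was -0.34. Both space_1g libraries were below all ground libraries in 6 (17.1%, background 5.73%) and above in 0. TEK, the angiopoietin receptor, had 235 and 167 CPM against 297, 261 and 309 CPM, and KDR, the main VEGF receptor, 158 and 99.2 CPM against 176, 164 and 194 CPM. CDH5 had 293 and 329 CPM against 459, 579 and 378 CPM. S1PR1, a receptor for sphingosine 1-phosphate that steadies vessels, had 64.7 and 46.9 CPM against 84.0, 70.7 and 65.4 CPM, with groups that touched at the libraries that stand apart. In TEK and KDR space_1g replicate 2 was the lower library. Leaving it out gave -0.29 for TEK and -0.17 for KDR, and leaving out space_1g replicate 1 gave -0.78 and -0.84. For S1PR1 the value was -0.17 without space_1g replicate 2 and -0.63 without replicate 1. Between space_1g replicate 1 and ground replicate 3, 21 of the 35 members were lower. Between space_1g replicate 2 and the mean of ground replicates 1 and 2, 32 were lower. Of all 16103 genes, 8442 were lower in the first of these comparisons and 7875 in the second.

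Genes of the cell surface, the matrix and the lysosome leaned the same way with smaller medians. Of 24 junction genes 18 were lower, the median was -0.10, and 5 lay below ground in both libraries (20.8%, background 5.73%). The junction median was -0.20 without space_1g replicate 2 and -0.16 without ground replicate 3. It was -0.07 without space_1g replicate 1 and -0.09 without ground replicate 1 or without both libraries that stand apart. GJA1, connexin 43 of gap junctions, had 92.4 and 86.7 CPM in space_1g and 133, 105 and 117 CPM on the ground, and CTNNB1, beta-catenin, 552 and 593 CPM against 762, 649 and 686 CPM. MARVELD2, tricellulin of tight junctions, was the member above ground, with 10.4 and 12.6 CPM against 6.77, 7.13 and 9.99 CPM. Of 44 collagens, laminins and elastic fibre genes 32 were lower, with a median of -0.18. That median became 0.02 without space_1g replicate 1, -0.39 without space_1g replicate 2, -0.12 without ground replicate 3 and -0.02 with both outlying libraries removed. COL4A1, a collagen of basement membrane, had 534 and 577 CPM against 762, 638 and 844 CPM, while COL12A1, a fibril-associated collagen, had 15.3 and 14.1 CPM against 7.54, 7.73 and 13.8 CPM. Of 40 lysosome genes 31 were lower, the median was -0.10, and 8 lay below ground in both libraries (20%, background 5.73%). Leaving out ground replicate 1 or 2 moved the lysosome median to -0.16 or -0.155. It was -0.08 without ground replicate 3 and -0.07 with both outlying libraries removed. GLB1, the lysosomal beta-galactosidase, had 94.0 and 118 CPM against 131, 130 and 152 CPM, and CTSA, cathepsin A, 148 and 183 CPM against 248, 210 and 190 CPM. CTSK, cathepsin K, was the lysosome gene above ground, with 9.46 and 6.91 CPM against 4.84, 6.18 and 5.33 CPM. Without space_1g replicate 1, the differences of GLB1 (-0.38), CTSA (-0.38) and CTSK (0.50) were -0.22, -0.23 and 0.30.

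Cytosolic heat shock chaperones were lower in 19 of 25 members, with a median of -0.26. The median was -0.42 without ground replicate 2, -0.20 without ground replicate 1 or ground replicate 3, and -0.22 with both outlying libraries removed. Both space_1g libraries were below all ground libraries in 3 (12%, background 5.73%) and above in 0. CHORDC1, a co-chaperone of HSP90, had 37.6 and 46.0 CPM in space_1g and 80.0, 57.8 and 56.5 CPM on the ground (-0.61 ± 0.21). HSPH1, a large HSP70-like exchange factor, had 152 and 128 CPM against 272, 161 and 208 CPM, and STIP1, which links HSP70 to HSP90, 181 and 180 CPM against 282, 198 and 274 CPM. In HSPH1 and STIP1 ground replicate 2 was the nearest to flight. The heat shock element GAANNTTC, which reads the same on both strands, was in 7 of 22 promoters of the list (31.8%) and in 4.6% of all 10187. Of the 3 members below ground, 1 held it (33.3%), which was CHORDC1, a share near that of the whole list. The CHORDC1 promoter (chr11:90223050-90223299 on the minus strand, GRCh38.p14) is shown because it holds 3 matches, at -205, -60 and -50, given in capitals.
CHORDC1: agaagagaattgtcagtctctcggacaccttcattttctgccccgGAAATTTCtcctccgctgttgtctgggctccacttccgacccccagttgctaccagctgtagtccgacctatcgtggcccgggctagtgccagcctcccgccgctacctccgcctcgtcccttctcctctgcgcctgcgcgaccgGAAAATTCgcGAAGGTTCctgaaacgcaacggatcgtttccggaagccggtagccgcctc

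Other lists had few members outside the range of ground or depended on which libraries were used. The large T antigen of this line is known to bind p53, the transcription factor of the DNA damage response. All 29 p53 targets had a higher mean in space_1g, with a median of 0.50, yet only 2 (6.9%, background 4.94%) lay above ground in both libraries, ZMAT3 and CCNG1. CCNG1, cyclin G1, had 217 and 274 CPM against 157, 196 and 182 CPM, a difference of 0.46 that was 0.29 without space_1g replicate 2. CDKN1A, the cell-cycle inhibitor p21, had 2315 and 610.4 CPM against 399, 348 and 2067 CPM, high in the same libraries that stand apart, and was chosen after its values were seen. Leaving out space_1g replicate 1 turned the p53 median to -0.23. It was 1.40 when space_1g replicate 2 was left out, 0.99 when ground replicate 3 was, 0.30 and 0.28 when ground replicates 1 and 2 were, and 0.42 with neither library that stands apart. Between space_1g replicate 1 and ground replicate 3, 22 of the 29 were higher, with a median of 0.18. Between space_1g replicate 2 and the mean of ground replicates 1 and 2, 27 were higher, with a median of 0.42. Of all 16103 genes, 7658 were higher in the first of these comparisons and 8228 in the second.

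Core histone and interferon-stimulated genes gave 0 members outside the range of ground in either direction, of 51 and 33 (background 4.94% above and 5.73% below). The histone median of -0.52 was 0.59 without space_1g replicate 1, -1.59 without replicate 2, -0.27 without ground replicate 1, -0.89 without ground replicate 3 and 0.26 with both of the outlying libraries removed. The interferon median of 0.23 was -1.26 without space_1g replicate 1, 1.54 without replicate 2, -0.05 and -0.37 without ground replicates 1 and 2, 1.08 without ground replicate 3 and -0.24 with both removed. Mitosis genes had a median of -0.30 and 1 member of 40 below ground (2.5%, background 5.73%). The mitosis median was 0.32 without space_1g replicate 1, -0.86 without replicate 2 and 0.03 with both outlying libraries removed. Leaving out ground replicates 1, 2 and 3 in turn gave -0.13, -0.18 and -0.54 for mitosis. The sign of these medians thus changed with the library left out. Genes of the integrated stress response had 27 of 31 members higher and a median of 0.33, with 0 above ground in both libraries, and leaving out space_1g replicate 1 gave a median of -0.22, against 0.98 when replicate 2 was left out. Leaving out ground replicates 1, 2 and 3 in turn gave 0.10, 0.01 and 0.97. In 1 member (3.23%, background 5.73%) both space_1g libraries lay below ground. Between space_1g replicate 1 and ground replicate 3, 24 of the 31 were lower, with a median of -0.22. Between space_1g replicate 2 and the mean of ground replicates 1 and 2, 27 were higher, with a median of 0.34. Of all 16103 genes, 8442 were lower in the first of these comparisons and 8228 higher in the second.

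The remaining lists described here covered DNA replication, early response genes, antioxidant genes and basic metabolism. Of 42 DNA replication genes 29 were lower and 6 lay below ground (14.3%, background 5.73%). Their median of -0.09 moved to -0.01 when space_1g replicate 1 was left out, to -0.19 when replicate 2 was, and to 0.03 with both outlying libraries removed. MCM3, a subunit of the replicative helicase, had 276 and 364 CPM against 387, 386 and 412 CPM, and its difference of -0.32 was -0.12 without space_1g replicate 1. TYMS, thymidylate synthase, was above ground with 151 and 150 CPM against 121, 138 and 117 CPM.

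Of 26 immediate early genes 20 were higher, with a median of 0.24 and 1 member above ground in both libraries (3.85%, background 4.94%). Leaving out space_1g replicate 1 turned it to -0.28, leaving out replicate 2 gave 0.78, and removing both outlying libraries gave 0.04. It was -0.06 and 0.63 when ground replicates 2 and 3 were left out. The member above ground was EGR1, an early growth response factor, with 22.3 and 30.9 CPM against 20.3, 15.7 and 15.7 CPM, a difference of 0.59 that was 0.36 without space_1g replicate 2. Among 24 NRF2 targets 19 were higher, the median was 0.22, and 2 lay above ground (8.33%, background 4.94%). That median was 0.09 without space_1g replicate 1 and 0.08 without ground replicate 2. GCLM, a subunit of the enzyme of glutathione synthesis, had 53.7 and 54.9 CPM against 51.0, 46.5 and 37.9 CPM, a difference of 0.27 that was 0.15 without ground replicate 3.

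Of 36 genes of glycolysis and hypoxia 1 lay above ground (2.78%, background 4.94%). It was HK2, a hexokinase that traps glucose, with 19.0 and 20.8 CPM against 10.1, 11.8 and 14.9 CPM (0.67 ± 0.26). In space_microg HK2 had 14.6, 9.39 and 9.43 CPM, within or below the ground range. Of 77 genes of the cytosolic ribosome 56 were higher, with a median of 0.09 that was 0.32 when space_1g replicate 1 was left out and -0.17 when replicate 2 was. It was 0.13, 0.01 and 0.12 when ground replicates 1, 2 and 3 were left out in turn. Between space_1g replicate 1 and ground replicate 3, 70 of the 77 ribosomal genes were lower in flight. Between space_1g replicate 2 and the mean of ground replicates 1 and 2, 72 were higher. Of all 16103 genes, 8442 were lower in the first of these comparisons and 8228 higher in the second. Of 44 genes of oxidative phosphorylation 28 were higher, with a median of 0.05 that was 0.17 when space_1g replicate 1 was left out and -0.09 when replicate 2 was. The ground replicates left out in turn gave 0.08, -0.05 and 0.12. Of 31 proteasome genes 25 were higher, with a median of 0.10 that was -0.04 without ground replicate 2 and 0.22 without ground replicate 3. Both lists split as the ribosomal genes did. Between space_1g replicate 1 and ground replicate 3, 39 of the 44 oxidative phosphorylation genes and 24 of the 31 proteasome genes were lower. Between space_1g replicate 2 and the mean of ground replicates 1 and 2, 37 and 29 were higher.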

How the data were processed

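Total RNA was depleted of ribosomal RNA and sequenced as stranded libraries, per the labels' protocols. The deposited table holds 1 normalised signal for each gene and library, which the labels call CPM. Named in the submitters' processing notes, with no role stated, are STAR 2.5.3, CASAVA 1.8.2, featureCounts, FastQC, edgeR and the builds GRCh38 and hg38. How strand was used in counting is not stated there, so sense and antisense genes may share reads. Divided by the worth of 1 read, 100% of values in every library came out whole (tolerance 1e-06), which gave recovered reads for edgeR 4.0.16 and DESeq2 1.42.0 as alternatives.

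The main test was limma 3.58.1 in R 4.3.3 (eBayes with a mean trend, two-sided, Benjamini-Hochberg adjustment at 0.05) on log2(CPM + 1) of all 8 libraries in a single fit without covariates, for genes that reached 1 CPM in 2 or more libraries. It was run before use on simulated counts with the same dispersion for all genes and no outlying libraries. That run does not show how the test behaves with the libraries that stand apart here. Members, lists and rules were chosen with earlier results of these data known. Named genes were the 12 per direction with the smallest unadjusted p, and 8 with the widest gap, at a mean of at least 5 CPM and without overlap, up to 4 per list, and 6 per direction that separate the space_1g libraries. Some genes that met the rule are left out of the text, and others named were chosen after their values were seen. Groups were called not overlapping where both space_1g libraries lay beyond all ground libraries. Alternatives were other pseudocounts, filters and scalings, only the 2 groups, no trend, array weights, a replicate block, 1 surrogate variable (sva 3.50.0) and each library left out. Positions are GENCODE v29 on GRCh38, with 13895 symbols found. Values of some genes are not reported here.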

Additional observations from a re-analysis of the deposited data

Results flagged for a closer look

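In 6 genes described here, at a mean of at least 5 CPM, both space_1g libraries lay on one side of all ground libraries and all space_microg libraries lay on the other side. In ABRACL the libraries of space_1g had 15.2 and 16.4 CPM, of ground 19.8, 17.4 and 16.7 CPM and of space_microg 22.1, 23.6 and 26.6 CPM, with space_1g minus space_microg at -0.58. PTGR1 differed by -0.40 and PPP4R1 by -0.24, each lowest in space_1g. RP1-167A14.2 differed by 0.71, MAST3 by 0.31 and DAGLB, a lipase, by 0.25, each highest in space_1g. The limma adjusted p of the difference between the flight groups was 0.912 for each of these genes. In all, 14 genes of 16103 were placed in this way, and the difference of each from ground was small, between -0.17 and 0.25 for the 6 named.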

How the results depend on the processing

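limma called 0 genes under every alternative run, and edgeR and DESeq2 called 0, with a smallest adjusted p of 0.135 for PTP4A1 by DESeq2. The count at an unadjusted p under 0.05, 249 as reported, was 151 with a filter of 5 CPM, 112 with only the 2 groups, 1427 with array weights, 1011 with 1 surrogate variable and 841 without both libraries that stand apart. With 1 library left out it ranged from 84 to 1327. The labels do not say that replicate numbers are shared between groups, and same-numbered libraries correlated from -0.68 to 0.68, so the numbers were not taken as pairs. With the replicate block the unadjusted count was 759 and 0 genes were called. Directions of the 114 genes followed are no measure of stability, since genes whose groups do not overlap cannot change sign when a library is left out. Of 748 list medians, 35 moved by more than the SD of the list median between replicates. That count is no measure of stability either. The libraries that stand apart widen this SD, and some alternatives, such as leaving out a space_microg library, cannot change a difference of group means. Counts of genes below and above ground were 974 and 762 with median-of-ratios scaling and 947 and 824 with quantile scaling, both chosen after seeing the data. With 2 space_1g libraries, leaving out 1 leaves a group whose spread is assumed to match the others. PDE3A has no value with the filter of 5 CPM. Depth limits levels near 0.12 CPM, the limit that a count of 0 allows in the shallowest library.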
